A study of Rattus norvegicus with 12 samples.

Results

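The nuclear-encoded subunits of the mitochondrial respiratory chain and of ATP synthase were followed in rat liver, 6 h after a single injection of dexamethasone or vehicle. The members were all non-control probes of the array whose gene name began with Nduf, Uqcr or Atp5, was Sdha to Sdhd, or began with Cox4 to Cox8, with 1 row per gene name taken from its brightest probe. This gave 70 of the 35737 gene names on the array, and 67 of them were among the 24304 that passed the filter on dim rows. All rats were adrenalectomized Sprague-Dawley animals of 8 to 10 weeks, so that none of the groups had its own adrenal glucocorticoid, and the females were in the Diestrous 1 stage. The 4 groups were males given PBS vehicle, males given dexamethasone at 1 mg/kg intraperitoneally, females given vehicle and females given dexamethasone. Each group had 3 one-colour arrays. The RNA on an array came from a pool of 3 animals, 9 in each group, and the spread between arrays is therefore that of pools and not of single animals.

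The respiratory chain passes electrons from NADH (complex I) or succinate (complex II) through ubiquinol, complex III and cytochrome c to oxygen at complex IV, and complex V, the ATP synthase, uses the resulting proton gradient to make ATP. Most subunits are encoded in the nucleus and imported, and a small catalytic set is encoded by mitochondrial DNA. Dexamethasone is a synthetic agonist of the glucocorticoid receptor, which in liver drives gluconeogenic and amino acid catabolic genes.

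By complex, the 70 members were 30 subunits of complex I, 4 of complex II, 5 of complex III, 14 of complex IV and 13 of complex V, together with Ndufaf1 (an assembly factor of complex I), Atp5s (coupling factor B, now Dmac2l), Cox4nb (now Emc8, not a respiratory subunit) and Cox6c1 (now listed as a Cox6c pseudogene). The 3 that did not pass were Atp5i, whose spot carried an outlier flag on 7 arrays, Cox6b, above background on 1 array, and Cox6c1, above background on none of the 12. Of the 67 that passed, 65 were well above background on all 12 arrays; Ndufs4 was so on 11 and Cox6b2 on 5. The hepatocyte marker list was above background throughout (8 of 8 genes on every array), whereas the striated muscle genes Acta1, Myh2 and Myh7 (of 9 on the array) and the fat genes Adipoq, Lep and Ucp1 (of 4) were never well above background. The fourth fat gene, Cidea, was above background on every array and rose by 3.55 ± 0.27 (SE) on the log2 scale in males and 2.98 ± 0.27 in females, and of the 4 striated muscle genes that passed the filter, Actn2 rose, by 1.81 ± 0.43 and 1.64 ± 0.43. Fkbp5 and Tat, established glucocorticoid targets, were higher after dexamethasone by 4.17 ± 0.18 (SE) and 2.46 ± 0.32 on the log2 scale in males and by 4.54 ± 0.20 and 1.98 ± 0.32 in females. One slide, slide 5, carried replicate 3 of every group and was dimmer, with 53.0 to 61.8% of spots well above background against 62.7 to 69.7% on the other slides. The members' median deviation from their group mean was above 0 on all 4 arrays of slide 5 (0.14 to 0.24 on the log2 scale).

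Most respiratory chain mRNAs moved little after dexamethasone. In males 3 of the 67 measured members were higher and 1 was lower, and in females 5 were higher and 1 was lower (limma on all 24304 rows, Benjamini-Hochberg adjusted p under 0.05, here termed called). These were 5.97% of the members in males and 8.96% in females. Over all rows, 20.1% were called in males (9.33% higher and 10.8% lower) and 24.3% in females (11.7% higher and 12.6% lower). The 3 dexamethasone and 3 vehicle arrays did not overlap for 13 of the 67 members in males and 22 in females, against 35.2% and 43.1% of all rows. The median difference of the members was 0.16 in males and 0.21 in females, against 0.01 and -0.08 over all rows, and 53 of the 67 differences were above 0 in each sex. That lean towards higher values depended on the scaling: with quantile normalization 39 differences were above 0 in males and 41 in females (medians 0.03 and 0.10), and by the deposited values 35 and 41 were (medians 0.01 and 0.10). With normexp background 51 and 54 were above 0 (medians 0.08 and 0.24). With array median scaling 57 and 61 were (medians 0.19 and 0.41), where the medians of all rows were 0.06 and 0.13. The sizes were small: the median absolute difference of the members was 0.18 in males and 0.24 in females, against 0.40 and 0.50 over all rows. The 95% confidence interval lay wholly within a 2-fold change for 58 of the 67 members in males and 55 in females (86.6% and 82.1%), against 41.4% and 37.9% of all rows. The members' median standard error was 0.20, against 0.28 over all rows.

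The female count depended on how the arrays were scaled. With each array centred on its median instead of its 75th percentile, the median of all rows in females moved from -0.08 to 0.13, calls over all rows went from 2847 higher and 3070 lower to 3787 higher and 2019 lower, and 12 members were called higher and 1 lower. The slides were not balanced over the groups. Female vehicle replicates 1 and 2 were on slide 2 and female dexamethasone replicates 1 and 2 on slide 4, scanned on another day, so that outside slide 5 the treatment of the females and the slide cannot be told apart. Slide 4 held no other group, and with the slide as a block the female dexamethasone level therefore rests on the array of slide 5. With the slide as a fixed block, 1 member was called in females, higher, and 4 higher and 2 lower in males. These were 1.49% and 8.96% of the members, against 12.7% and 25.6% of all rows with that block. Without the block, 24.3% of all rows were called in females and 20.1% in males. Within slide 5, which held 1 array of each group, the median dexamethasone minus vehicle difference was 0.18 in males and 0.32 in females, and within slide 1, which held 1 male array of each treatment, it was 0.22. No value within a single slide has a replicate.

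**Figure D1:**
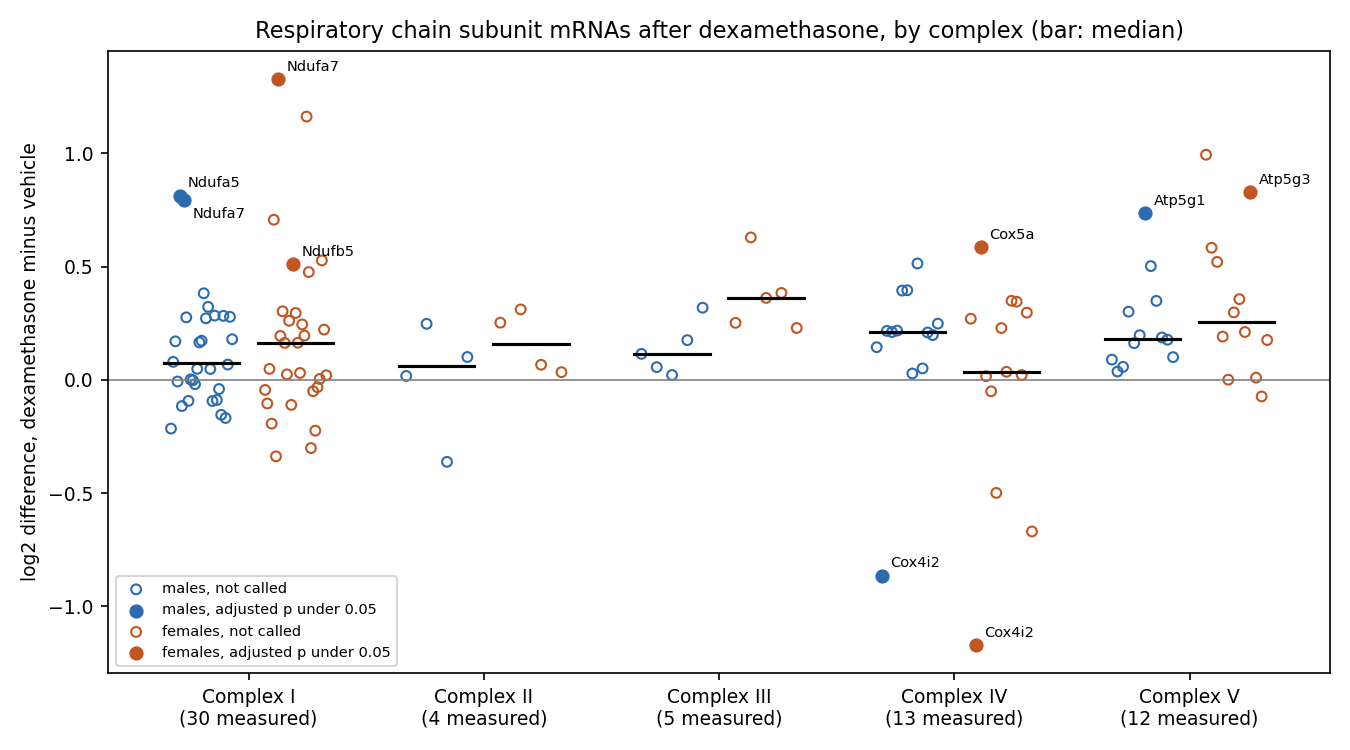
Log2 difference, dexamethasone minus vehicle, of the subunits reported here (circles) by complex on the horizontal axis, males in blue and females in orange; filled circles passed limma's adjusted p under 0.05 and black bars are medians over all measured subunits. Cox4i2 lies lowest in both sexes and Ndufa7 is among the highest in both.

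Cox4i2 was the one subunit that fell, and it did so in both sexes. It encodes the alternative isoform of subunit 4 of cytochrome c oxidase, known for its high level in lung. In males its normalised log2 signal (log2 signal minus the 75th percentile of the array) was 2.94, 3.28 and 3.64 on the vehicle arrays and 2.31, 2.65 and 2.30 on the dexamethasone arrays, a difference of -0.86 ± 0.22 (SE; limma adjusted p = 0.017). In females it was 3.45, 3.84 and 3.71 after vehicle and 2.30, 2.45 and 2.75 after dexamethasone, a difference of -1.17 ± 0.22 (limma adjusted p = 0.0033). The vehicle and dexamethasone arrays did not overlap in either sex. The male call was lost without male vehicle replicate 3, male dexamethasone replicate 1 or male dexamethasone replicate 3 (limma adjusted p = 0.056 to 0.063) and without slide 5 (-0.63, adjusted p = 0.12), and the female call was lost with the slide as a fixed block (-0.87, limma adjusted p = 0.080). Within slide 5 the difference was -1.34 in males and -0.97 in females.

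The ubiquitous isoform Cox4i1 was not called in either sex, with differences of 0.14 ± 0.21 in males and 0.27 ± 0.21 in females. The probes of both isoforms are shown here because only Cox4i2 was called, and no test compared the isoforms with each other. These probes share no run longer than 4 bases on the same strand (array probe sequences, written 5′ to 3′, with no capitals).
Cox4i2 probe: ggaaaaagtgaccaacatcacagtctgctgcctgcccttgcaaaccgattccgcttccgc
Cox4i1 probe: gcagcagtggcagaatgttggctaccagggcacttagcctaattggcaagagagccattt
Some markers of several cell types other than hepatocytes were lower where Cox4i2 was lower. Of the 8 hepatocyte genes, 8 differences were above 0 in males and 6 in females (medians 0.23 and 0.27), with 0 and 1 called higher. All 5 measured stellate cell genes were above background in every group; their summed signal, in multiples of each array's 75th percentile, was 21.9 to 26.1 after vehicle and 16.9 to 19.0 after dexamethasone in males, and 22.7 to 28.6 and 10.1 to 15.2 in females. Lrat and Pdgfrb fell in both sexes, Des fell in females, and Col1a1 and Reln were not called. In males 3 of the 5 stellate differences were above 0 (median 0.03), and in females 5 of 5 were below 0 (median -0.63). Of the 5 endothelial genes, 4 were above background on every array of each group, with summed signals of 33.2 to 45.9 after vehicle and 17.2 to 22.6 after dexamethasone in males and of 41.0 to 66.0 and 7.26 to 17.1 in females, but none of the 4 was called in males (Kdr, a growth factor receptor, -1.09 ± 0.37, limma adjusted p = 0.061) and only Kdr was in females (-2.29 ± 0.37). Of the blood cell and macrophage lists, 5 of 7 measured T and NK cell genes fell in males and 6 in females. So did 2 of 2 neutrophil genes, 2 of 2 B and plasma cell genes and 2 of 8 Kupffer cell genes in each sex. Over all rows, 10.8% were called lower in males and 12.6% in females. The summed signal of the T and NK cell list was 4.16 to 5.53 after vehicle and 2.28 to 2.62 after dexamethasone in males, and 4.59 to 7.09 and 1.93 to 2.27 in females, with Cd2 and Cd3e never above background. That of the Kupffer cell list was 81.6 to 117 and 53.2 to 97.5 in males and 87.8 to 148 and 49.5 to 106 in females, and the ranges overlapped. The neutrophil sums were at most 2.45 after vehicle and 0.171 after dexamethasone, and the B and plasma cell sums at most 0.865 and 0.193. The single bile duct gene and both erythroid genes measured were not called. The part of these cell types in the Cox4i2 result was not tested. In bulk RNA, fewer cells of a type and less RNA per cell cannot be told apart.

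In complex I, the NADH dehydrogenase, 2 of 30 subunits rose in males and 3 in females. These were 6.67% and 10%, against 9.33% and 11.7% of all rows called higher. Ndufa7, an accessory subunit, rose in both sexes. Its normalised log2 signal in males was -0.02, -0.27 and 0.38 after vehicle and 0.65, 0.55 and 1.29 after dexamethasone (difference 0.80 ± 0.25, limma adjusted p = 0.045). In females it was -0.21, -0.17 and 0.31 after vehicle and 1.45, 1.25 and 1.21 after dexamethasone (1.33 ± 0.25, limma adjusted p = 0.0035). The treatments did not overlap in either sex. In females Ndufa7 was called under 24 of 24 alternative settings (limma adjusted p = 0.0015 to 0.041), including each array left out in turn. In males the call stood in 3 of the 12 fits that left out 1 array (those without male vehicle replicate 3, male dexamethasone replicate 2 or female vehicle replicate 3), with adjusted p up to 0.15 in the other 9. It was also lost with array median scaling, quantile normalization and no filter on dim rows (limma adjusted p = 0.084, 0.055 and 0.085). The difference within slide 5 was 0.91 in males and 0.90 in females, and 0.91 within slide 1 in males.

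Ndufa5, another accessory subunit, was called higher in males and missed the threshold in females. The male arrays read 5.72, 5.62 and 6.11 after vehicle and 6.40, 6.45 and 7.04 after dexamethasone, without overlap (0.81 ± 0.26, limma adjusted p = 0.048). The female arrays read 5.69, 5.84 and 6.49 after vehicle and 6.80, 6.50 and 6.84 after dexamethasone, with the highest vehicle array just under the lowest dexamethasone array (0.71 ± 0.26, limma adjusted p = 0.070). The male call stood in 2 of the 12 fits that left out 1 array, those without male vehicle replicate 3 or female vehicle replicate 3, and was lost with array median scaling (limma adjusted p = 0.084) and with no filter on dim rows (0.089).

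Ndufb5, an accessory subunit of the membrane arm, was called in females. It read 4.49, 4.58 and 4.69 on the female vehicle arrays and 4.97, 4.98 and 5.35 on the female dexamethasone arrays, without overlap (0.51 ± 0.16, limma adjusted p = 0.038). In males it differed by 0.17 ± 0.16. The female call was lost in 6 of the 12 fits that left out 1 array: those without female vehicle replicate 1 or 2, any of the 3 female dexamethasone replicates, or male dexamethasone replicate 1. It was also lost with the slide as a fixed block (0.62, limma adjusted p = 0.061), without slide 5 (0.44, adjusted p = 0.056), with quantile normalization (0.35, adjusted p = 0.061), by the deposited values (0.36, adjusted p = 0.051) and with no filter on dim rows (adjusted p = 0.089).

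The 7 nuclear-encoded core subunits of complex I carry the flavin and iron-sulfur clusters or their close neighbours. They had a median difference of 0.13 in males and 0.48 in females, and the 23 accessory subunits had 0.05 in both. These medians were taken under the main scaling alone. Over all 30 subunits the female median was 0.16. It was 0.03 with quantile normalization, 0.01 by the deposited values, 0.18 with normexp background and 0.37 with array median scaling. Ndufs3 and Ndufv1, the latter binding the flavin, were just short of the threshold in females, with 0.48 ± 0.16 and 0.53 ± 0.18 (limma adjusted p = 0.053 for both). Their limma adjusted p was 0.032 and 0.030 with array median scaling, and 0.11 and 0.22 without slide 5. Ndufs1, the largest core subunit, varied most: its female vehicle arrays read 1.57, 1.13 and -0.77 and its female dexamethasone arrays 1.66, 2.37 and 1.38, an estimate of 1.16 ± 0.65 that overlapped and was not called. Without female vehicle replicate 3 that estimate was 0.45. Ndufa6, at -0.34 ± 0.19 in females, had the lowest estimate of the complex and was not called.

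Complex II, succinate dehydrogenase, is also an enzyme of the citrate cycle, and none of its 4 subunits was called (0 with limma's unadjusted p under 0.05 in either sex). The flavoprotein subunit Sdha read 6.68, 6.69 and 6.93 on the male vehicle arrays and 6.86, 6.64 and 6.85 after dexamethasone, a difference of 0.02 ± 0.17 with a 95% interval of -0.36 to 0.39. In females it differed by 0.25 ± 0.17. The iron-sulfur subunit Sdhb differed by 0.25 ± 0.17 in males and 0.31 ± 0.19 in females, where 1 flagged vehicle spot was left out. The membrane anchors Sdhc and Sdhd differed by -0.36 ± 0.28 and 0.10 ± 0.16 in males and by 0.07 ± 0.28 and 0.03 ± 0.16 in females. All 8 of these intervals lay within a 2-fold change.

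Complex III, the cytochrome bc1 complex, had no called subunit among 5 (limma's unadjusted p was under 0.05 for 0 in males and 1 in females). All 5 differences were above 0 in both sexes, with medians of 0.11 in males and 0.36 in females. In males 4 were above 0 with quantile normalization and 3 by the deposited values, and 5 with array median scaling and with normexp background. Uqcrc1, a core protein, read 2.28, 2.08 and 1.42 on the female vehicle arrays and 2.29, 2.67 and 2.70 after dexamethasone (0.63 ± 0.25, limma adjusted p = 0.092). Uqcrc2, its partner, read 4.55, 4.48 and 3.70 after vehicle and 4.56, 4.69 and 4.57 after dexamethasone in females (0.36 ± 0.27). In both, the female vehicle array of slide 5 was the lowest, and without it the differences were 0.38 and 0.09. Uqcrfs1, the Rieske iron-sulfur protein, differed by 0.18 ± 0.16 in males and 0.38 ± 0.18 in females, where 1 flagged dexamethasone spot was left out. Uqcrh, the hinge protein next to cytochrome c1, differed by 0.32 ± 0.18 in males.

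In complex IV, cytochrome c oxidase, 13 of 14 names passed the filter, and beside Cox4i2 only Cox5a, a structural subunit of the matrix side, was called. One of the 13, Cox8h, was read by a probe of the opposite strand (described with its sequence), so that 12 subunits were measured; its row stays in the counts and medians of the complex and of the 67 members. Cox5a read 4.76, 4.78 and 4.68 on the female vehicle arrays and 5.27, 5.29 and 5.42 on the female dexamethasone arrays (0.58 ± 0.15, limma adjusted p = 0.018). These arrays did not overlap. In males the arrays overlapped, at 4.96, 4.61 and 4.97 after vehicle and 5.08, 4.92 and 5.19 after dexamethasone (0.22 ± 0.15). The female call was lost without female dexamethasone replicate 2 (limma adjusted p = 0.052), without slide 5 (0.51, adjusted p = 0.067), with no filter on dim rows (adjusted p = 0.0504) and with the slide as a fixed block (0.60, adjusted p = 0.11).

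Several subunits of complex IV exist as a widely expressed and a muscle or testis form. Cox6a1, the liver form, differed by 0.22 ± 0.21 in males and -0.05 ± 0.21 in females, and Cox6a2, the heart and muscle form, by 0.39 ± 0.49 and -0.50 ± 0.49. Cox7a2 differed by 0.51 ± 0.27 in males and 0.35 ± 0.27 in females, and Cox7a2l, a supercomplex factor, by 0.05 ± 0.14 and 0.35 ± 0.14 (limma adjusted p = 0.10 in females). Cox8a, the widely expressed form, differed by 0.20 ± 0.18 and 0.30 ± 0.18. Neither these nor Cox6b2, the testis form, was called; Cox6b2 was not well above background on any female vehicle array and is given no fold.

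Cox8h, an older name of Cox8b, the heart and muscle form, was represented by 3 probes, and the brightest of them, the one used for its row, was designed from an expressed sequence tag that runs against the RefSeq transcript. The capitals mark the stretch each probe shares with another: the probe of the RefSeq transcript and the tag probe A_44_P689394 are reverse complements over 21 bases, and the row's probe A_44_P689395 shares 40 bases with that tag probe on the same strand.
Cox8h A_44_P414273 (RefSeq transcript): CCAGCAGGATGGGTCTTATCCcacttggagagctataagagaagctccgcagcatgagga
Cox8h A_44_P689394 (expressed sequence tag): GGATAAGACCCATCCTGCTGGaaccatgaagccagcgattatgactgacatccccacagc
Cox8h A_44_P689395 (expressed sequence tag, used for the row): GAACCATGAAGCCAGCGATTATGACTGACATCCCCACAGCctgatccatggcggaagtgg
The probe of the RefSeq transcript was well above background on 2 of 12 arrays, and the row's probe on 12. The Cox8h row read -2.17, -2.05 and -2.38 on the female vehicle arrays and -3.25, -2.86 and -2.51 after dexamethasone, without overlap but not called (-0.67 ± 0.42, limma adjusted p = 0.28). In males it differed by 0.25 ± 0.42. Since this probe reads the strand opposite to the RefSeq-based probe, its values are not those of the Cox8b transcript.

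Ndufc2, a membrane-arm subunit of complex I, had a similar pair. Its probes A_44_P356344 (RefSeq transcript) and A_44_P331223 (expressed sequence tag) are reverse complements over the 21 bases in capitals.
Ndufc2 A_44_P356344: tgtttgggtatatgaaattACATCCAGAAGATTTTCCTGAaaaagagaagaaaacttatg
Ndufc2 A_44_P331223: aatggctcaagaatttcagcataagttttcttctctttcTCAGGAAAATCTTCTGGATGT
The row's probe, the brightest, gave 4.76, 4.64 and 4.89 on the female vehicle arrays and 4.96, 4.79 and 5.13 after dexamethasone (0.20 ± 0.16, not called). A_44_P356344, of the same RefSeq transcript, gave -4.32, -4.03 and -2.26 after vehicle and -1.28, -1.28 and -1.70 after dexamethasone in females, without overlap (2.12 ± 0.57; limma adjusted p = 0.022 in a fit of all 28175 probes). It was well above background on 10 of 12 arrays. The opposite-strand probe gave -0.11 ± 0.27 in females. The probes of Ndufc2 therefore disagreed, and no change is stated for the gene.

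**Figure D2:**
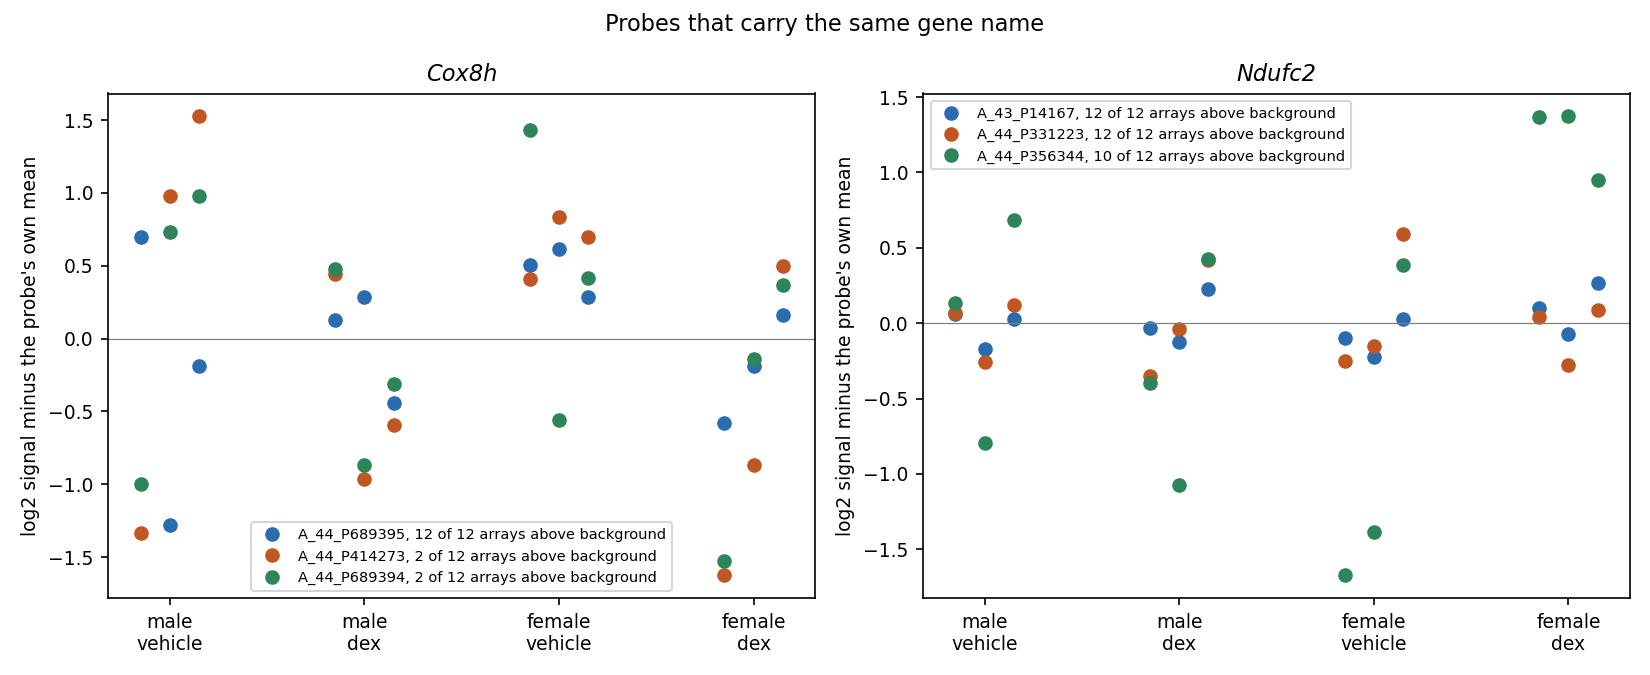
Log2 signal of each probe minus its own mean over the 12 arrays, for the 3 probes of Cox8h (left) and of Ndufc2 (right), with 3 arrays per group along the horizontal axis. The Ndufc2 probe A_44_P356344 (green) is high on the 3 female dexamethasone arrays and the other Ndufc2 probes are not.

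In complex V, 12 of 13 subunits were measured and 1 was called higher in each sex. This was 8.33% in each, against 9.33% of all rows called higher in males and 11.7% in females. The male call was Atp5g1 and the female call Atp5g3, different genes of the c ring through which protons pass. All 12 differences were above 0 in males and 11 in females, but with quantile normalization 7 and 9 were, and by the deposited values 5 and 9. With array median scaling and with normexp background 12 were above 0 in each sex. The ring protein is encoded by 3 genes that differ in their import sequence and give the same mature protein. Atp5g1 read 6.65, 6.91 and 6.73 on the male vehicle arrays and 7.29, 7.55 and 7.65 on the male dexamethasone arrays, without overlap (0.73 ± 0.19, limma adjusted p = 0.020). In females it read 6.86, 6.84 and 7.32 after vehicle and 7.22, 7.28 and 7.60 after dexamethasone, with overlap (0.36 ± 0.19). The male call was lost without male vehicle replicate 1 or 3 or male dexamethasone replicate 2 or 3 (limma adjusted p = 0.057 to 0.069).

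Atp5g3 read 5.53, 5.40 and 5.04 on the female vehicle arrays and 5.95, 6.19 and 6.30 on the female dexamethasone arrays, without overlap (0.83 ± 0.21, limma adjusted p = 0.015). Its other probe, of a different part of the transcript, rose as well in females (1.06 ± 0.22, limma adjusted p = 0.0065 in the fit of all probes). In males the row overlapped, at 5.31, 5.69 and 5.73 after vehicle and 6.20, 5.66 and 5.91 after dexamethasone (0.35 ± 0.21). The female call was lost without female dexamethasone replicate 2 (limma adjusted p = 0.054), without slide 5 (0.61, adjusted p = 0.10), by the deposited values (0.64, adjusted p = 0.061) and with the slide as a fixed block (1.03, adjusted p = 0.074). Atp5g2, the third gene, differed by 0.50 ± 0.23 in males and 0.21 ± 0.23 in females and was not called.

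The catalytic head of complex V was not called, but in females its 3 large subunits stood close to the threshold. Atp5a1, the alpha subunit, read 5.40, 5.15 and 4.07 on the female vehicle arrays and 5.69, 6.10 and 5.81 after dexamethasone (0.99 ± 0.37, limma adjusted p = 0.078). Atp5b, the catalytic beta subunit, gave 0.58 ± 0.23 and Atp5c1, the gamma subunit of the rotor, 0.52 ± 0.20 (limma adjusted p = 0.090 and 0.087). The vehicle array of slide 5 was the lowest for all 3, and without it the differences were 0.59, 0.38 and 0.34 (adjusted p = 0.20, 0.23 and 0.22). In males the same 3 subunits differed by 0.09 ± 0.37, 0.04 ± 0.23 and 0.06 ± 0.20. The small subunits of the central stalk, Atp5d and Atp5e, and the 4 measured subunits of the peripheral stalk, Atp5f1, Atp5h, Atp5j and Atp5o, were not called in either sex, and the differences of the peripheral stalk ran from 0.10 to 0.20 in males and from -0.07 to 0.30 in females.

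**Figure D3:**
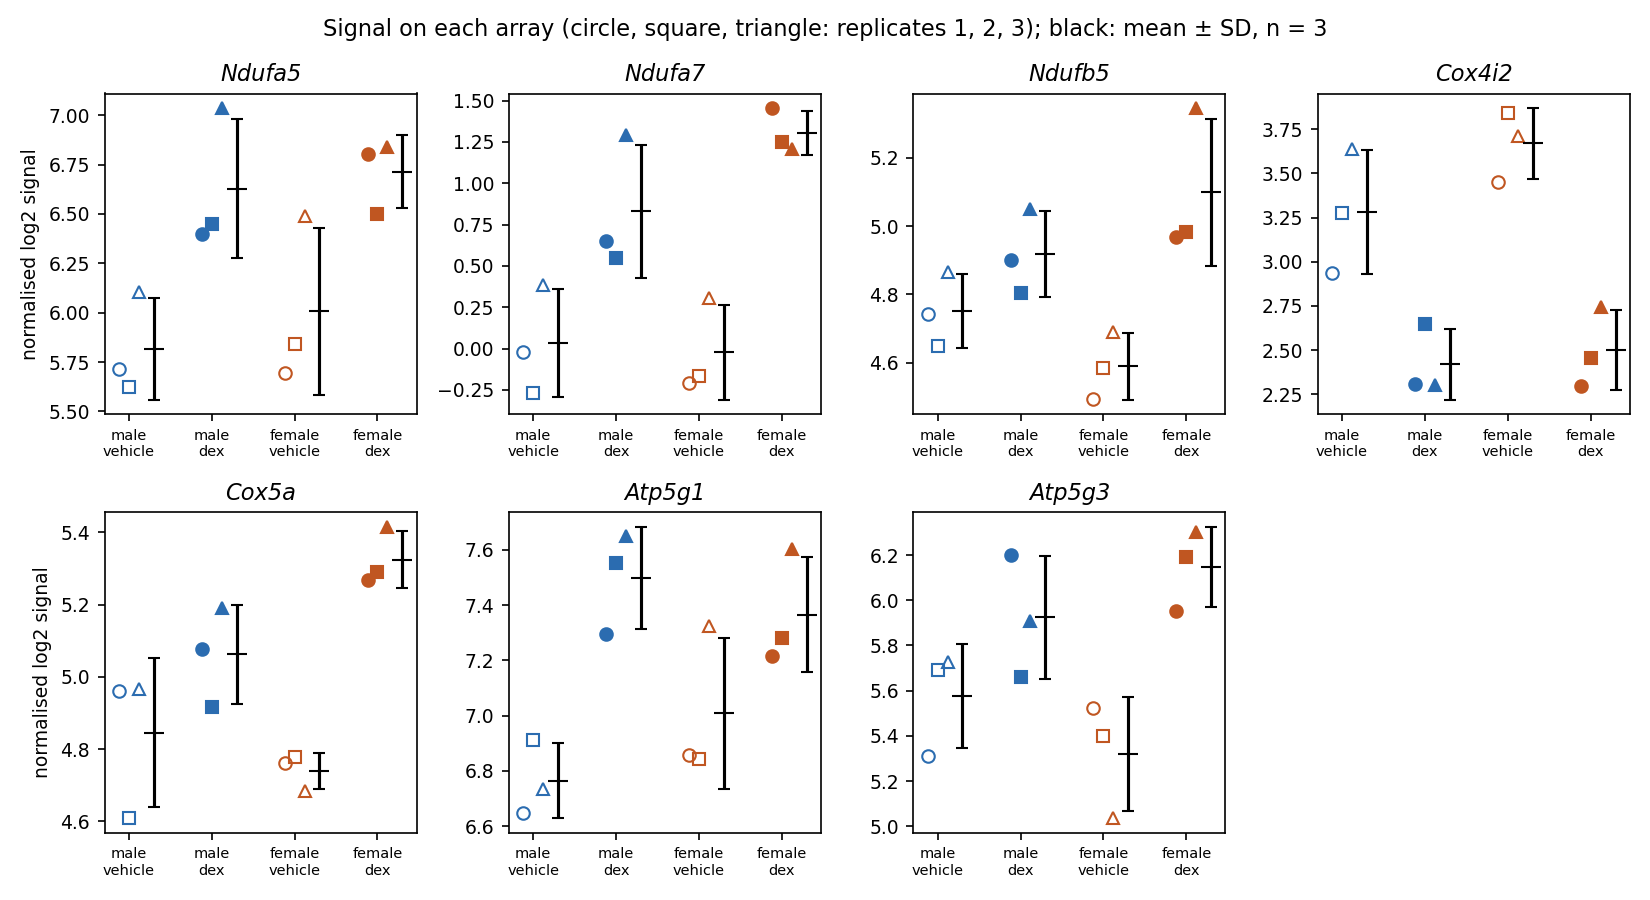
Normalised log2 signal on each array (vertical axis, a separate scale for each gene) for 7 members called in at least 1 sex, in the 4 groups; open symbols are vehicle, filled symbols dexamethasone, and black marks the mean ± SD of 3 arrays. Replicate 3 (triangles) is the array of slide 5; Cox4i2 is lower after dexamethasone in both sexes and Ndufa7 higher in both.

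Of the 3 measured names that are no subunits, Atp5s, coupling factor B, read -0.21, -0.01 and 0.22 on the male vehicle arrays and -0.47, -0.57 and -0.67 after dexamethasone, without overlap (-0.57 ± 0.19, limma adjusted p = 0.063). In females it differed by 0.04 ± 0.19, and the test of the sex difference gave 0.61 ± 0.27 (limma unadjusted p = 0.047, adjusted p = 0.49). Ndufaf1 and Cox4nb were not called.

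Between the sexes no member was called, after vehicle or after dexamethasone, and no member was called for a difference in response (0 of 67 in each test). The unadjusted p of limma was under 0.05 for 1, 2 and 2 members in these tests. Over all rows 1.70% and 2.31% were called between the sexes, and 0.0288% for the difference in response. The 95% interval of the sex difference lay within a 2-fold change for 62 of 67 members after vehicle and 61 after dexamethasone (92.5% and 91%, against 56.8% and 53.4% of all rows), and that of the difference in response for 46 (68.7%, against 32.1%). Cox6c, a small complex IV subunit, had the lowest p after vehicle: it read 6.00, 5.92 and 6.24 in males and 6.44, 6.49 and 6.84 in females, without overlap (female minus male 0.54 ± 0.20, limma unadjusted p = 0.020, adjusted p = 0.33). After dexamethasone it read 5.99, 5.96 and 6.29 in males and 6.57, 6.36 and 6.95 in females, again without overlap (0.55 ± 0.20, limma adjusted p = 0.21).

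The 2 members called in both sexes were Ndufa7 and Cox4i2, with 2 called in males alone and 4 in females alone, and the differences had the same sign in both sexes for 53 of 67 members (46 above 0 and 7 below). None of the 6 members called in a single sex was called for a difference in response, so these counts do not show a response of 1 sex.

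**Figure D4:**
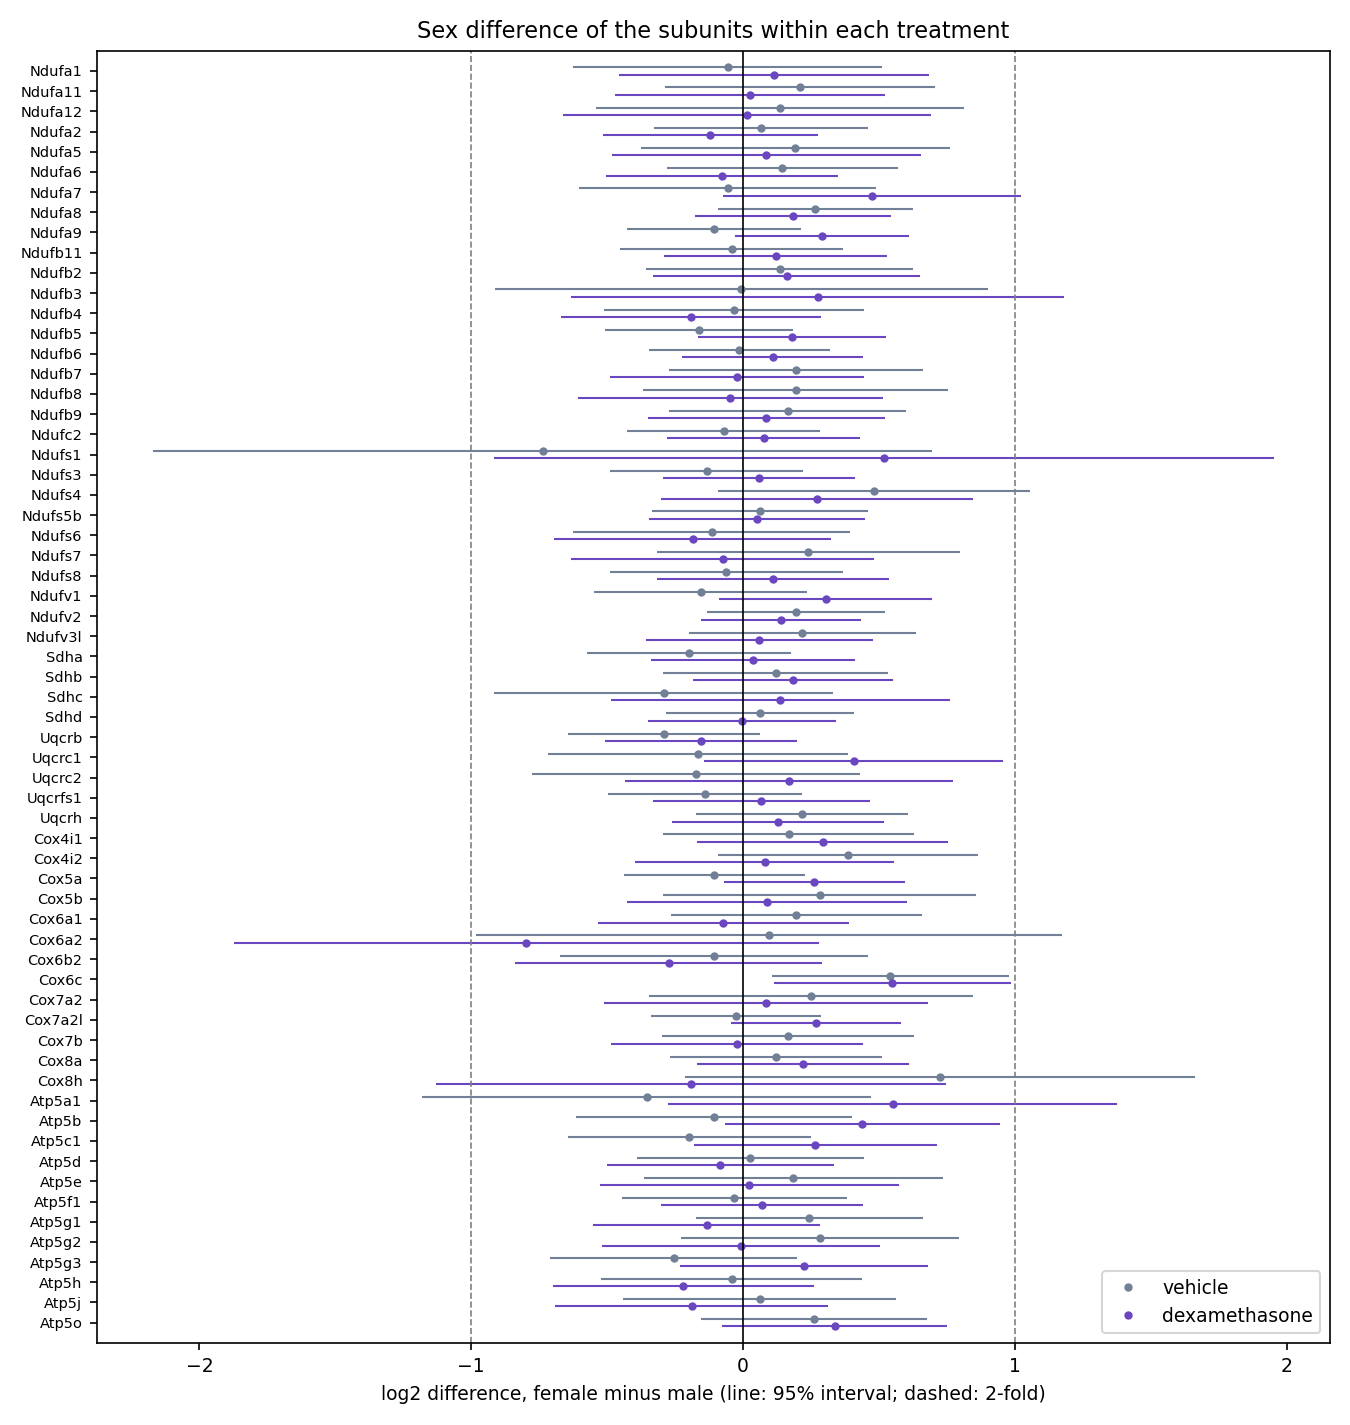
Female minus male log2 difference of the subunits reported here (rows, by complex) after vehicle in grey and after dexamethasone in purple; points are limma estimates, lines their 95% intervals, and dashed lines a 2-fold change. Cox6c is the one subunit shown whose interval lies above 0 in both treatments; 62 and 61 of the 67 members have intervals within the dashed lines.

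The letters of 5 motifs were searched on both strands of the RefSeq promoters (GRCr8, 250 bases before to 50 after each start) of the subunit genes, 58 of 66 of which had an entry. The motif of the NRF-1 type, named here by its type alone, was in 14 of the 58 (24.1%, against 4.25% of all 33469 promoters), the YY1 type, AAGATGGC, in 13 (22.4%, against 3.17%), the ETS type, CCGGAAGT, in 6 (10.3%, against 3.81%) and the ERR type, TCAAGGTCA, in 2 (3.45%, against 0.433%). The full palindromic glucocorticoid response element was in 0 (against 0.0149% of all). No sites of different motifs shared bases. Of the 6 called members with an entry, Ndufa5 held an NRF-1 type match 32 bases before the start, and Atp5g3 (Atp5mc3) held an ERR type match, on the opposite strand, 57 bases before the start and an NRF-1 type match after it. The 250 bases upstream of both are shown because they are the called members that held a match, with the match in capitals, in the direction of the gene (both on the minus strand).
Ndufa5 chr4:53971236-53971485: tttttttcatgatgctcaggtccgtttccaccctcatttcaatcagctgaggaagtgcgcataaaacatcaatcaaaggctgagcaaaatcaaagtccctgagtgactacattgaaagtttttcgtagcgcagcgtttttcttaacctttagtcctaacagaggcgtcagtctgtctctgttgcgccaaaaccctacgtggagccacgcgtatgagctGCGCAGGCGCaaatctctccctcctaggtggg
Atp5g3 chr3:79220665-79220914: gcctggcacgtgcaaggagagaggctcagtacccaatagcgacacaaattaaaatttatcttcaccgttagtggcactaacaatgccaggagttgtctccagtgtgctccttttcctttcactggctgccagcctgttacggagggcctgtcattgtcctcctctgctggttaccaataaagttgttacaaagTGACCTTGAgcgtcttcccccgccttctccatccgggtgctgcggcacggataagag
These are matches of letters and not measured binding sites.

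The genes that serve the chain were counted in the same fits, in lists chosen with earlier results of these data known. The protein import list held 15 genes chosen by name alone, those beginning with Tomm or Timm. The names stand for translocases of the outer and inner membrane, which import the nuclear-encoded subunits. Of the 15 genes, 7 rose in males and 8, Tomm34 among them, in females. These were 46.7% and 53.3%, against 9.33% and 11.7% of all rows called higher, and the list medians were 0.53 and 0.50. Tomm40, the outer membrane channel, rose by 1.48 ± 0.19 in males and 1.94 ± 0.19 in females, and Tomm20, an import receptor, by 1.27 ± 0.16 and 1.25 ± 0.16. Timm9, an intermembrane chaperone, rose by 1.41 ± 0.20 and 1.06 ± 0.20. The female count fell to 5 without female dexamethasone replicate 2 and to 4 with the slide as a fixed block.

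Of 21 regulators of mitochondrial biogenesis and mtDNA upkeep, 6 rose and 1 fell in each sex. The 33.3% called stood against 20.1% of all rows in males and 24.3% in females, and the list medians were 0.26 and 0.53. Polg2, the accessory subunit of the mtDNA polymerase, rose by 3.46 ± 0.17 in males and 2.65 ± 0.17 in females, the coactivator Ppargc1b by 2.23 ± 0.43 and 2.21 ± 0.43, and the nuclear receptor Esrra by 1.14 ± 0.18 and 1.05 ± 0.18. Sirt3, the mitochondrial deacetylase, fell by 0.61 ± 0.16 on the log2 scale in males and by 1.06 ± 0.14 in females. The male Sirt3 call was lost without male vehicle replicate 2 or 3 or male dexamethasone replicate 1, without slide 5 and with no filter on dim rows.

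Of 16 electron carrier, ubiquinone and nucleotide or phosphate exchange genes, 3 rose and 1 fell in males and 5 rose and 2 fell in females (25% and 43.8% called, against 20.1% and 24.3% of all rows). Cycs, which carries electrons from complex III to complex IV, rose by 0.84 ± 0.17 in males and 1.12 ± 0.17 in females, and Slc25a5, an ADP/ATP carrier, by 0.71 ± 0.19 and 1.30 ± 0.19. Cyc1, the cytochrome c1 of complex III, whose name the member rule does not cover, rose in females (0.84 ± 0.15, limma adjusted p = 0.0032). Coq10a, a ubiquinone-binding protein, fell by 1.12 ± 0.24 on the log2 scale in males and by 1.87 ± 0.24 in females. The male count of risers was 1 without male vehicle replicate 1, male vehicle replicate 3 or male dexamethasone replicate 1.

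Of 15 citrate cycle and pyruvate entry genes, 3 rose in males and 4 in females (20% and 26.7%, near the shares of all rows), among them Idh3a by 1.13 ± 0.15 and 0.94 ± 0.15, Idh3g by 1.18 ± 0.16 and 1.03 ± 0.16 and, in females, Mdh2 by 0.68 ± 0.20. Of 61 mitochondrial ribosomal proteins, 7 rose and 1 fell in males and 14 rose and 2 fell in females, led by Mrps31 (2.42 ± 0.15 and 1.98 ± 0.15). The 13.1% called in males were below the 20.1% of all rows and the 26.2% in females near the 24.3%. The female count of risers lay between 6 and 9 without female vehicle replicate 1 or 2 or any female dexamethasone replicate, and was 2 with the slide as a fixed block. Of 11 assembly factors, 0 were called in males (3 at limma's unadjusted p under 0.05) and 5 rose in females (45.5%), among them Lrpprc (1.18 ± 0.21), which stabilises mitochondrial mRNAs, Foxred1 (1.81 ± 0.41), a factor of complex I, and Bcs1l (0.85 ± 0.20), which inserts the Rieske protein. That female count was 2 or 3 without any one of female vehicle replicates 1 and 3 and female dexamethasone replicates 1 and 2.

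The 7 subunits encoded by mitochondrial DNA and present on the array (Cytb, cytochrome oxidase 1 to 3, Atp6, Nd2 and Nd5) were not called in either sex (0 of 7, also at limma's unadjusted p under 0.05), with list medians of 0.09 in males and -0.07 in females.

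**Figure D5:**
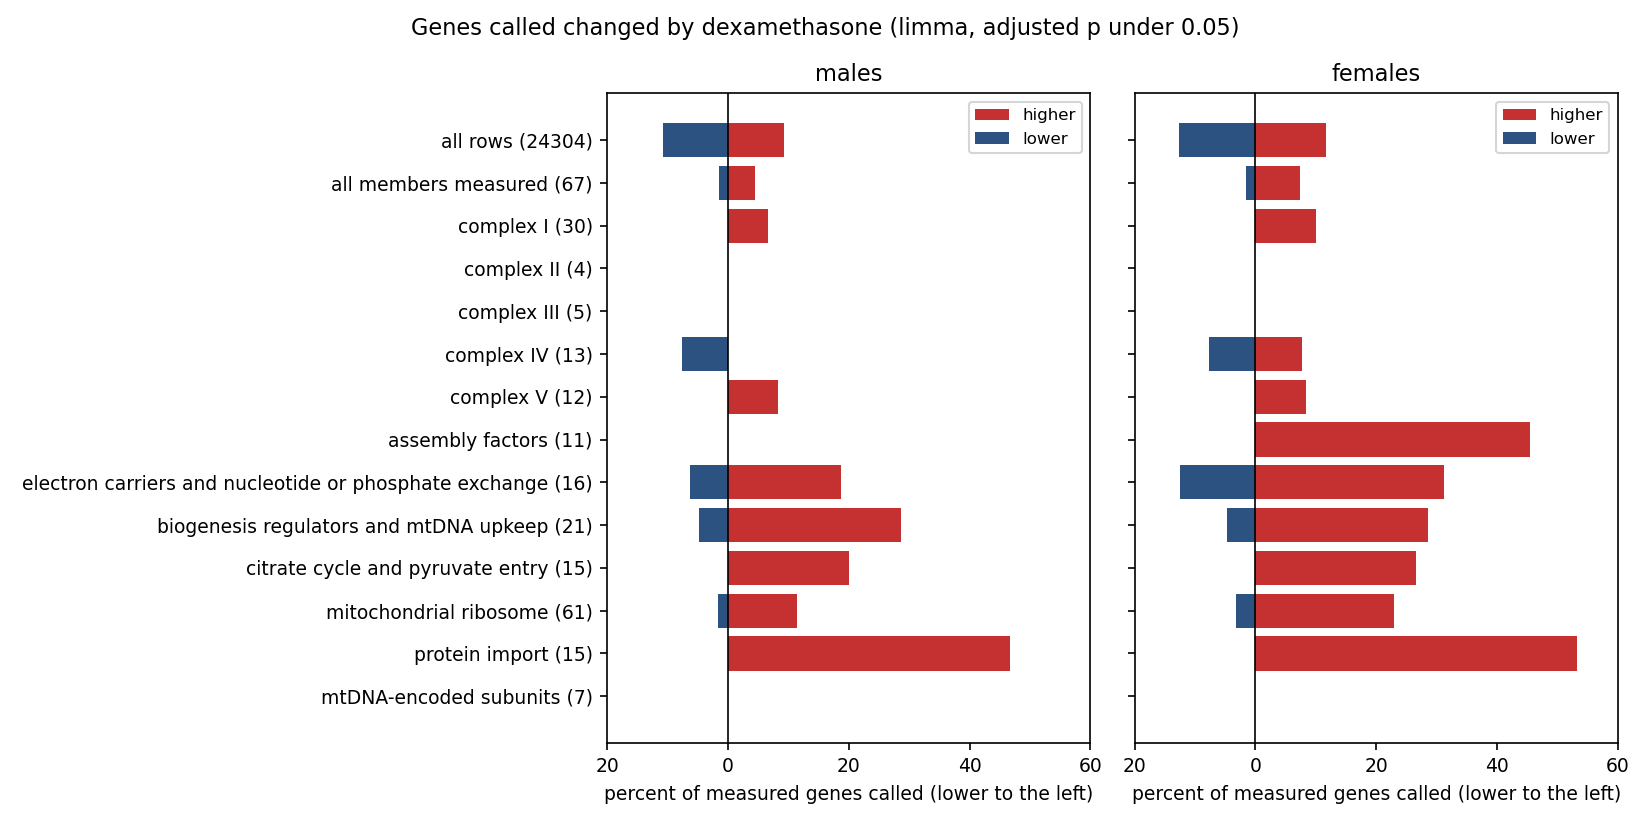
Percent of measured genes called higher (red, to the right) and lower (blue, to the left) after dexamethasone in males (left panel) and females (right panel), for all rows, all members, each complex and the related lists; the number measured is in parentheses. The members stand at 5.97% and 8.96% in all, below the 20.1% and 24.3% of all rows, and protein import at 46.7% and 53.3%.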

How the data were processed

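The deposited files are the scanner output of Agilent 4x44K rat arrays (1 colour), processed with Agilent Feature Extraction 9.1 (9.1.3.1 per the file headers); the processed signal used is an intensity, background-subtracted by that software, per the file headers. A value table deposited by the authors holds log10 values of the same signals (correlation at least 0.996 with the scanner values), with median log10 values of 1.49 to 1.52 per array; it served as an alternative, and its further scaling is not given in the sources used here.

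Control and outlier-flagged spots were left out, spots of a probe averaged, and log2 intensities, computed here from the deposited intensity, reduced by each array's 75th percentile. A row was kept where 3 or more of the 12 arrays were well above background and each group had 2 or more usable arrays. limma 3.58.1 in R 4.3.3 (lmFit, eBayes) was fitted to all 12 arrays with group means, and p-values were adjusted over all rows (Benjamini-Hochberg). The script was tested on simulated data with independent noise on each array and no slide effect, so that test does not cover effects of the slide. P-values measure the spread between arrays of pooled RNA, and the number of arrays limits the precision.

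Named were every called member, the 2 members with the lowest p per complex and treatment contrast, the complex II subunits and tissue isoforms, the 3 lowest p per sex contrast, and up to 3 called genes per list and contrast; Ndufs1, Ndufa6, Uqcrc2, Atp5c1, Atp5s, Ndufc2, Cyc1 and Mdh2 were added after their values were seen. The results of 2 genes under this rule are not reported here; counts and medians include them. The members and lists were chosen with earlier results of these data known. Of the 70 names, 44 were matched to RefSeq by accession, 22 by symbol and 4 by synonym. The alternatives were array median, quantile and normexp scaling, the deposited table, filters on dim rows, the mean of all probes, slide and replicate blocks, other eBayes settings and each array left out; omission of slide 5 and a fit of single probes were added after seeing the data.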

Additional observations from a re-analysis of the deposited data

How the results depend on the processing

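The numbers of members called higher by dexamethasone (3 in males, 5 in females) moved most. In males 1 was called higher with array median scaling and 1 with no filter on dim rows, and 7 with the slide as a random block. The shares of all rows called in males were 17.6%, 10.7% and 31.9% under these settings, against 20.1% in the main fit. In females 12 were called higher with array median scaling, 9 with normexp background, 3 with no filter, 8 with rows above background on all 12 arrays, 1 with the slide as a fixed block, 11 with the slide as a random block, 8 with trend and robust eBayes, and 3 without slide 5. The number called lower (1 in each sex) was 2 in males with the filter of all 12 arrays, with the slide as a fixed block and as a random block, and 0 without slide 5; in females it was 2 with the deposited table and without slide 5, and 0 with the slide as a fixed block. The female median was 0.41 with array median scaling. Over all rows, males had 25.9% called with the filter of all 12 arrays, 25.6% with the fixed block and 16.7% without slide 5. Females had 23.9% with array median scaling, 21.8% with normexp background, 13.2% with no filter and 31.2% with the filter of all 12 arrays. The female share was 12.7% with the fixed block, 24.8% with the random block, 25.5% with trend and robust eBayes and 29.8% without slide 5. By the deposited table it was 24.4%, against 24.3% in the main fit. The causes were not tested. Leaving out each array in turn gave 0 to 3 higher and 0 to 2 lower in males, 2 to 6 higher and 1 lower in females, and 0 in both directions in each sex contrast and in the difference in response; the medians ran from 0.08 to 0.20 in males, 0.07 to 0.28 in females, -0.03 to 0.12 and -0.02 to 0.18 between the sexes after vehicle and dexamethasone, and -0.11 to 0.11 for the difference in response. No called difference reversed under any alternative that was run.

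The replicate numbers do not pair the arrays: the correlation of deviations between vehicle and dexamethasone arrays of one number was 0.01, -0.00 and 0.52 in males and 0.07, 0.11 and 0.18 in females, and number 3 is also slide 5. With the replicate block, 5 members were called in males and 10 in females (9 higher), and 1 was called higher in females than in males after dexamethasone. That block called 26.1% of all rows in males, 31.8% in females and 3.49% between the sexes after dexamethasone.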
